A study of Mus musculus with 7 samples.

Results

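The genes described here are 10 members of the S100 family of small calcium-binding proteins, *S100a8*, *S100a9*, *S100a1*, *S100a4*, *S100a6*, *S100a10*, *S100a11*, *S100a13*, *S100a14* and *S100a16*, of 20839 genes listed in at least 1 of the libraries. They were chosen by name, and their levels were measured in mouse thymic epithelial cells across 7 libraries of droplet single-cell RNA sequencing, each made from 3 pooled thymi and sorted for EpCAM+ CD45- cells. A further 7 S100 genes were listed and served as a comparison. The isotype control libraries came from C57BL/6 mice given 100 µg of an isotype antibody in 3 treatments within 1 week and were taken at week 2 (age 4 weeks) and week 10 (age 12 weeks). The anti-RANKL libraries came from C57BL/6 mice given 100 µg of anti-RANKL on the same schedule and were taken at weeks 2, 4, 6 and 10 (ages 4, 6, 8 and 12 weeks). The *Aire* trace library came from C57BL/6 mice of age 6 weeks that carried Aire-CreERT2-R26-CAG-Stopfl-zsGreen and received 2 mg of tamoxifen on alternate days over 10 days, so that cells in which the *Aire* driver had been active could carry the reporter ZsGreen. Each week of a treatment is 1 library, and animals cannot be told apart within a library.

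Most S100 proteins are dimers that change shape when they bind calcium through EF-hand motifs and then attach to partner proteins, while the *S100a10* product binds annexin A2 without calcium. Several work inside the cell with annexins or the cytoskeleton, and others, above all the *S100a8* and *S100a9* products that together form calprotectin, are known from neutrophils, monocytes and stressed epithelia. In the thymic medulla, cells that express *Aire*, the regulator of ectopic tissue gene expression, lie beside *Ccl21a*-expressing epithelial cells, tuft cells marked by *Trpm5* and keratinocyte-like cells marked by *Krt10*. RANKL is the cytokine on which *Aire*-expressing cells depend.

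All 10 genes lie on chromosome 3 (GRCm38/mm10, GENCODE vM21), and 8 of them lie within the 184.7 kb between 90511034 and 90695721. From left to right this cluster holds *S100a1* (90511034 to 90514392, minus strand), *S100a13* (90514435 to 90524581, plus), *S100a14* (90526856 to 90528837, plus), *S100a16* (90537254 to 90543151, plus), *S100a4* (90603771 to 90606045, plus), *S100a6* (90612882 to 90624181, plus), *S100a8* (90668978 to 90670035, plus) and *S100a9* (90692632 to 90695721, minus). *S100a11* (93520488 to 93526287, plus) and *S100a10* (93555080 to 93564643, plus) lie beside each other farther along the chromosome. *S100a4* overlaps the gene *Gm42674* on the same strand, so its counts are uncertain to that degree, and *S100a1* and *S100a13* start next to each other on opposite strands without overlapping.

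RefSeq (GRCm38.p6) gave 9 start sites for 8 of the genes, and the 250 bases before each start were searched on both strands for the TATA box letters TATAAA, for TGANTCA as the letters of an AP-1 site and for the CCAAT box. No window was given for *S100a10* or *S100a14*. The windows of *S100a8*, *S100a9* and *S100a4*, which were highest in the *Aire* gate, and of *S100a11*, which was lower there, are shown 5′ to 3′ on the gene's strand, with letters of any motif in capitals and without the bases that GENCODE counts as untranslated exon. They are *S100a8* at chr3:90668821-90668977 (plus), *S100a9* at chr3:90695722-90695971 (minus), *S100a4* at chr3:90603520-90603769 (plus) and *S100a11* at chr3:93520246-93520487 (plus).
S100a8: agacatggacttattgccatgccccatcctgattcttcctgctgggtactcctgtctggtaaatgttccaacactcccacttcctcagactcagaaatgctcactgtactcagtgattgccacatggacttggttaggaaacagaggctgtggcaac
S100a9: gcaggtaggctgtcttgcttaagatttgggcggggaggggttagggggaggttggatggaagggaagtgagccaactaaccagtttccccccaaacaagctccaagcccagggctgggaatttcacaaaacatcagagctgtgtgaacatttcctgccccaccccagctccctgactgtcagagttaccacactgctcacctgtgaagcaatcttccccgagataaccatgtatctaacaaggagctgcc
S100a4: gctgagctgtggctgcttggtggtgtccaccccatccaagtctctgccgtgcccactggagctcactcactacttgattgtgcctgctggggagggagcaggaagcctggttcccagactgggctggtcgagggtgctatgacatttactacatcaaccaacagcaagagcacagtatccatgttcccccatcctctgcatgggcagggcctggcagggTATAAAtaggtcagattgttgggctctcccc
S100a11: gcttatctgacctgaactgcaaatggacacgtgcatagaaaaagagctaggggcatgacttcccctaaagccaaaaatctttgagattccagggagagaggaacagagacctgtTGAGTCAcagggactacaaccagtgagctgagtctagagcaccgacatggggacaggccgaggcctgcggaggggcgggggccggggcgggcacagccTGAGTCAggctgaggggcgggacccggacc
TATAAA was found 31 bases before the start of *S100a4*. It was also found 30 bases before that of *S100a8*, in the stretch left out above because GENCODE places an exon there, and 12.4% of 32851 promoter windows hold it. TGANTCA, held by 6.75% of windows, was found at 136 and 38 bases before the start of *S100a11* and 192 bases before the second of 2 starts of *S100a16*. CCAAT, held by 33.8% of windows, was in none of the 4 windows shown and in that of *S100a6*, on the minus strand 228 bases before the start. The *S100a9* window held none of the 3 motifs, which says only that these letters are not in it.

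Cells were placed by fixed cutoffs on the deposited natural log values among the 8220 of 8453 cells with no UMI of *Ptprc*, the CD45 gene. The *Aire* gate (*Aire* above 1.5) held 1769 cells, the *Ccl21a* gate (above 4) 3451, the *Trpm5* gate (above 0) 545 and the *Krt10* gate (above 1.5) 219, while 2544 cells passed no gate and 305 passed more than 1. Median depth differed among them, at 12910 UMIs per cell in the *Aire* gate, 7100 in the *Ccl21a* gate, 9808 in the *Trpm5* gate, 5268 in the *Krt10* gate and 7314.5 outside all gates. *Aire* stood at 6.44 to 9.90 UMIs per 10000 in its own gate and at 0.04 to 0.62 in the *Ccl21a* gate over the libraries. The *Krt10* gate was the least even, with a summed level of its 8 listed keratinocyte markers between 5.6 and 113, and with *Dmkn* at 0 in the lowest library, anti-RANKL week 4. Libraries held 3857876 to 22197691 UMIs, and 50 of 8403 distinct cell barcodes occurred in more than 1 library.

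A level is the mean over cells of a gene's UMIs per 10000 UMIs. Gates were compared with the other *Ptprc*-negative cells of the same library by limma on log2(level + 0.1), with 1 value per side and library and the library as a block, and a gene was called at an adjusted p (Benjamini-Hochberg over all genes tested) below 0.05. The 7 libraries are the replicates, the gate comparisons share cells with each other, and all 10 genes passed the filter on low levels in every comparison. Fold changes are on the log2(level + 0.1) scale.

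**Figure D1:**
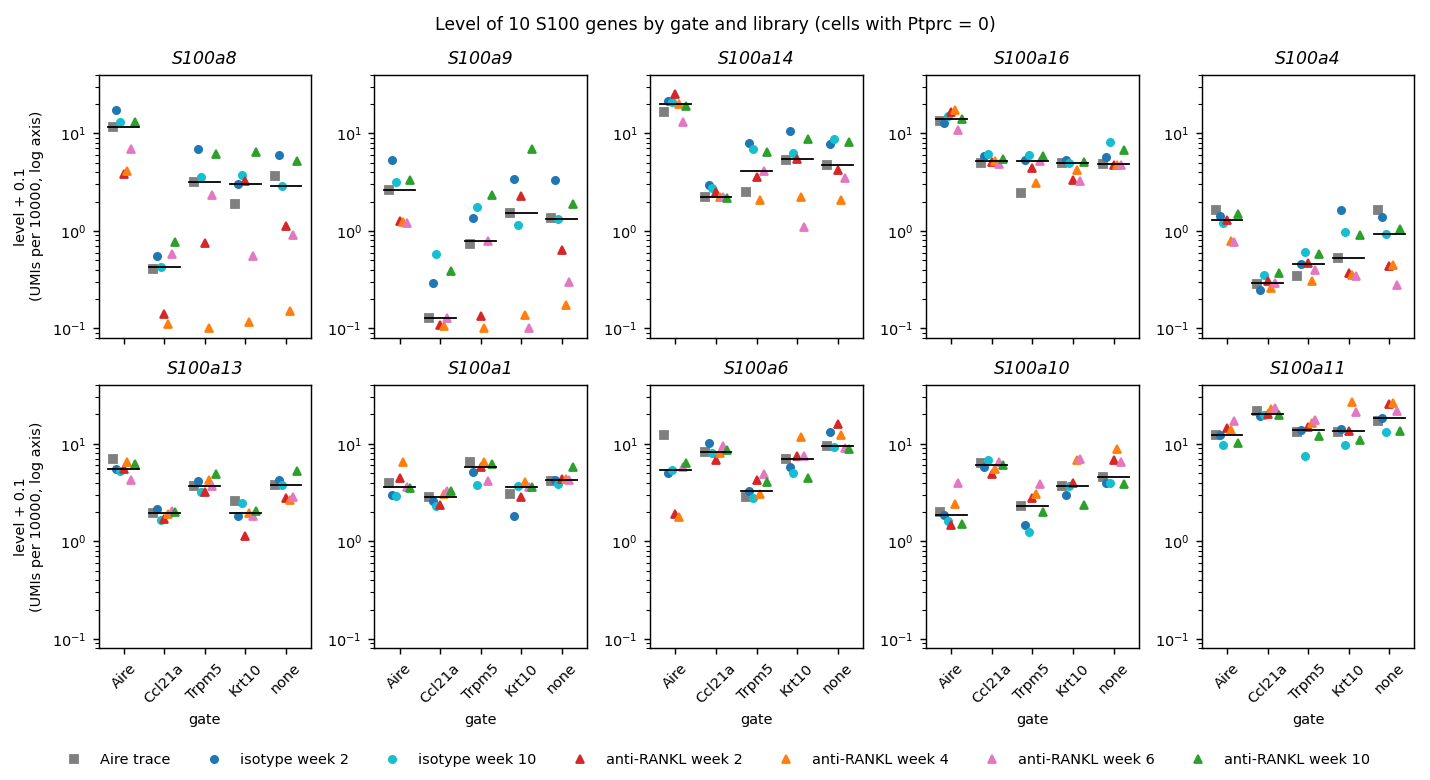
Level of each S100 gene (UMIs per 10000 plus 0.1, log axis) in the 4 gates and in cells of no gate; each point is 1 library and the bar is the median of the 7 libraries. *S100a8* had a median of 11.5 in the *Aire* gate and 0.32 in the *Ccl21a* gate, while *S100a10* had 1.77 and 6.00.

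In the *Aire* gate, 6 of the 10 genes were higher than in the other cells, *S100a8*, *S100a9*, *S100a14*, *S100a16*, *S100a4* and *S100a13*, and 3 were lower, *S100a10*, *S100a11* and *S100a6*. Over all 11282 genes tested, 17.1% were called higher and 29.8% lower in this gate. The median log2 difference of the 10 genes was 1.10, against -0.12 over all genes.

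The calprotectin genes showed the widest range. *S100a8* stood in the *Aire* gate at 11.5 in the *Aire* trace library, 17.4 and 13.1 in the isotype libraries of weeks 2 and 10, and 3.77, 3.98, 6.82 and 12.9 in the anti-RANKL libraries of weeks 2, 4, 6 and 10. In the *Ccl21a* gate the same libraries gave 0.30, 0.45, 0.32, 0.04, 0.01, 0.48 and 0.68. The lowest *Aire* gate value lay above the highest *Ccl21a* gate value, and weeks 2 and 4 after anti-RANKL were low in both. The fitted difference of *S100a8* from all other cells was 3.00 ± 0.31 on the log2 scale (SE, n = 7 libraries, 7 of 7 higher, limma adjusted p = 5.89e-05). *S100a9*, its dimer partner, ranged from 1.10 to 5.20 in the *Aire* gate with a median of 2.50, and from 0.01 to 0.48 in the *Ccl21a* gate with a median of 0.03. Its difference from the other cells was 2.05 ± 0.23 (7 of 7 higher, limma adjusted p = 8.38e-05).

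RNA of *S100a8* was uneven among cells. It was detected in 51.4% of *Aire* gate cells, and in 28.0% (exact binomial 95% interval 25.9% to 30.2%) once each cell had been thinned to 2000 UMIs. T-cell-like cells (a *Ptprc* UMI and a *Cd3* UMI; 73 cells, median 9422 UMIs) gave 23.3% unthinned and 8.70% thinned (3.26% to 18.0%). The thinned shares of the *Ccl21a* gate (3.02%), the *Trpm5* gate (8.10%), the *Krt10* gate (10.9%) and of no gate (10.0%) are given beside it as values only. T-cell-like cells were no clean reference, as their summed level of the 5 thymic epithelium markers was 16.3 to 40.6 over the libraries (41.0 to 61.1 in all *Ptprc*-negative cells), and their *S100a8* level ran from 0 to 16.3, so no background for *S100a8* or *S100a9* was set from them. All these shares pool cells of 7 libraries that differed, with the thinned *S100a8* share of the *Aire* gate between 8.06% and 30.9%. Single cells with high values also occurred outside the *Aire* gate. Cells of no gate held between 8.51% and 46.2% of a library's *S100a8* UMIs. *S100a9* was detected in 28.3% of *Aire* gate cells and, thinned, in 13.8%, against 9.59% and 5.80% of T-cell-like cells. The 10% of cells with the highest values carried 92.9% of the summed *S100a8* level in the median library, against 23.1% for *S100a11*, which was spread most evenly.

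**Figure D2:**
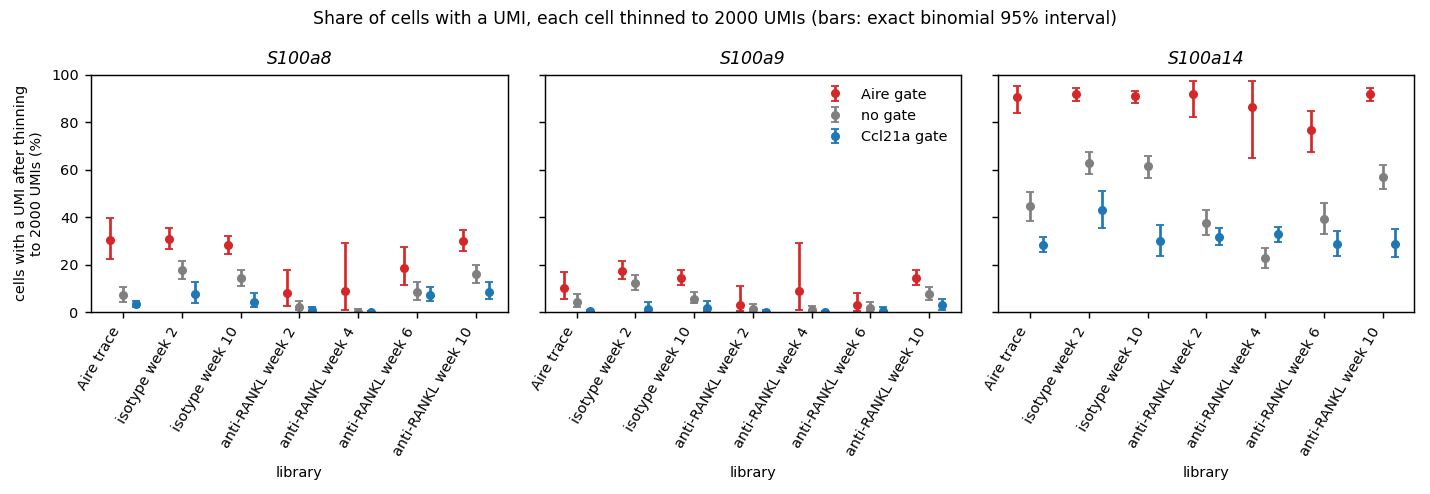
Share of cells with a UMI of *S100a8*, *S100a9* or *S100a14* (%, each cell thinned to 2000 UMIs) by library in the *Aire* gate, the *Ccl21a* gate and no gate; error bars give the exact binomial 95% interval of each share. *S100a8* ran from 8.06% to 30.9% in the *Aire* gate, and *S100a14* from 76.7% to 91.9%.

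At 10 or more UMIs of *S100a8* per 10000, a limit set after the values were seen, there were 470 cells, some in more than 1 gate, of which 334 were in the *Aire* gate, 115 in no gate, 24 in the *Trpm5* gate, 10 in the *Krt10* gate and 10 in the *Ccl21a* gate. The highest cell, in the isotype week 2 library and in no gate, reached 482.6 UMIs per 10000. *Epcam*, the epithelial gene of the sort, had a UMI in 91.3% of these cells. The 11 listed neutrophil markers had a UMI in 40.2% of them and in 32.3% of the remaining cells, and 2 or more of these markers in 10.6% and 3.50%. The macrophage and dendritic list had a UMI in 88.3% against 37.6% and the T cell list in 25.5% against 14.1%. The fibroblast list had 43.6% against 48.7%, the endothelial list 12.6% against 6.25% and the erythroid list 21.9% against 6.50%. These shares pool libraries of unlike depth, with 137 of the 470 cells in isotype week 2 and 2 in anti-RANKL week 4. In isotype weeks 2 and 10 the macrophage and dendritic list gave 92.0% against 65.6% and 88.4% against 54.2%. The fibroblast list turned there (52.6% against 43.9%, 41.1% against 38.5%), but not in the trace library (34.9% against 43.3%).

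*S100a8* and *S100a9* were found in the same cells more often than the product of their shares within each library, summed over the libraries, gives. Of 942 cells with *S100a9*, 641 (68.0%) also had *S100a8*, where that sum is 398.2, and after thinning 286 of 422 did, where it is 75.6. In the *Aire* gate 398 of 501 *S100a9* cells had both (79.4%), and in the *Ccl21a* gate 30 of 101 (29.7%), where the sums are 285.4 and 25.0. After thinning, 4 of 21 *S100a9* cells of the *Ccl21a* gate had both, where the sum is 1.19. Cells differ in depth within a library, which can move both genes together in the unthinned counts, while the thinned counts are at equal depth. The part of depth was not tested.

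Summed levels of lists from other cell types differed between the gates. The 8 macrophage and dendritic markers summed to 3.46 to 10.9 in the *Aire* gate and 0.24 to 1.56 in the *Ccl21a* gate, with 7 to 8 and 6 to 8 of them detected. The 11 neutrophil markers summed to 0.84 to 3.59 and 0.74 to 1.71, and the 4 erythroid markers to 0.25 to 1.69 and 0.01 to 0.24. The 7 fibroblast markers had a lower median in the *Aire* gate (0.95, 0.49 to 4.88) than in the *Ccl21a* gate (3.49, 2.03 to 5.12), the 8 T cell markers had 0.38 and 0.20, and the 5 endothelial markers 0.15 and 0.04. With cells that had a UMI of any of 43 markers of other cell types left out, 129 *Aire* gate cells remained in all and 3 libraries had enough of them. The *S100a8* difference was then 0.20 (limma adjusted p = 0.699), *S100a13* fell to 0.23 (0.563) and *S100a9* turned to -0.80 (0.171), while *S100a14* at 2.03, *S100a16* at 1.47 and *S100a4* at 0.86 were still called. The part of these lists in the *S100a8* and *S100a9* levels was not tested beyond this.

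*S100a14* and *S100a16*, the S100 genes known mainly from epithelia, had their highest levels in the *Aire* gate. A UMI of *S100a14* was found in 83.5% to 100% of the gate's cells over the libraries and one of *S100a16* in 87.2% to 98.5%, while a median of 74.0% and 49.0% reached 10 UMIs per 10000. *S100a14* stood in that gate at 16.6 in the trace library, 21.1 and 20.8 in the isotype libraries, and 25.0, 19.9, 12.8 and 18.9 in the anti-RANKL libraries in order of week. In the *Ccl21a* gate it stood between 2.08 and 2.82, so the gates did not overlap in any library. The difference from the other cells was 2.31 ± 0.20 (7 of 7 higher, limma adjusted p = 2.24e-05). Thinned detection was 90.5% in the *Aire* gate, 31.1% in the *Ccl21a* gate and 43.5% in T-cell-like cells, with unthinned shares of 98.0%, 64.2% and 69.9%. *S100a16* ranged from 10.7 to 17 in the *Aire* gate with a median of 13.8, and the medians of the other gates and of no gate lay together between 4.79 and 5.13. It was higher by 1.40 ± 0.10 (7 of 7, limma adjusted p = 1.34e-05). For both genes the lowest *Aire* gate library lay above the highest library of any other gate and of no gate.

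*S100a4*, whose product binds non-muscle myosin, and *S100a13*, whose product takes part in the release of FGF1 and interleukin 1 alpha, were also higher in the *Aire* gate. *S100a4* was a low gene throughout, with a median of 1.20 in the *Aire* gate (0.67 to 1.54) and of 0.19 in the *Ccl21a* gate (0.15 to 0.27), and differed from the other cells by 1.17 ± 0.16 (7 of 7 higher, limma adjusted p = 2.12e-04). *S100a13* had a median of 5.38 in the *Aire* gate (4.11 to 6.91) and of 1.87 in the *Ccl21a* gate (1.55 to 2.05), and differed by 1.02 ± 0.13 (7 of 7 higher, limma adjusted p = 1.94e-04). *S100a1*, known from heart and skeletal muscle, did not pass the test, at 0.04 ± 0.15 (3 of 7 higher, limma adjusted p = 0.841). With cells carrying other cell types' markers left out, *S100a1* was called lower in this gate, at -1.21 (limma adjusted p = 0.00679).

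*S100a10*, *S100a11* and *S100a6* went the other way. *S100a10*, the partner of annexin A2, had a median of 1.77 in the *Aire* gate (1.39 to 3.87) and of 6.00 in the *Ccl21a* gate (4.74 to 6.64). Every library had the lower value in the *Aire* gate, and the difference from the other cells was -1.38 ± 0.12 (limma adjusted p = 2.17e-05). *S100a11*, the partner of annexin A1, had medians of 12.3 (9.50 to 16.9) and 20.1 (19.4 to 23.0) in the 2 gates and differed from the other cells by -0.60 ± 0.06 (7 of 7 lower, limma adjusted p = 4.23e-05).

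*S100a6*, or calcyclin, had a median of 5.25 in the *Aire* gate but ran from 1.66 and 1.79 in the anti-RANKL libraries of weeks 4 and 2 to 12.1 in the *Aire* trace library. It differed from the other cells by -0.99 ± 0.31 (6 of 7 lower, limma adjusted p = 0.0249), and the trace library was the exception. Without the anti-RANKL week 4 library the difference was -0.76 with an adjusted p of 0.0597, and without the week 2 library -0.77 with 0.0705 (both limma). Leaving out the isotype week 2 library gave -0.96 with 0.0528.

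**Figure D3:**
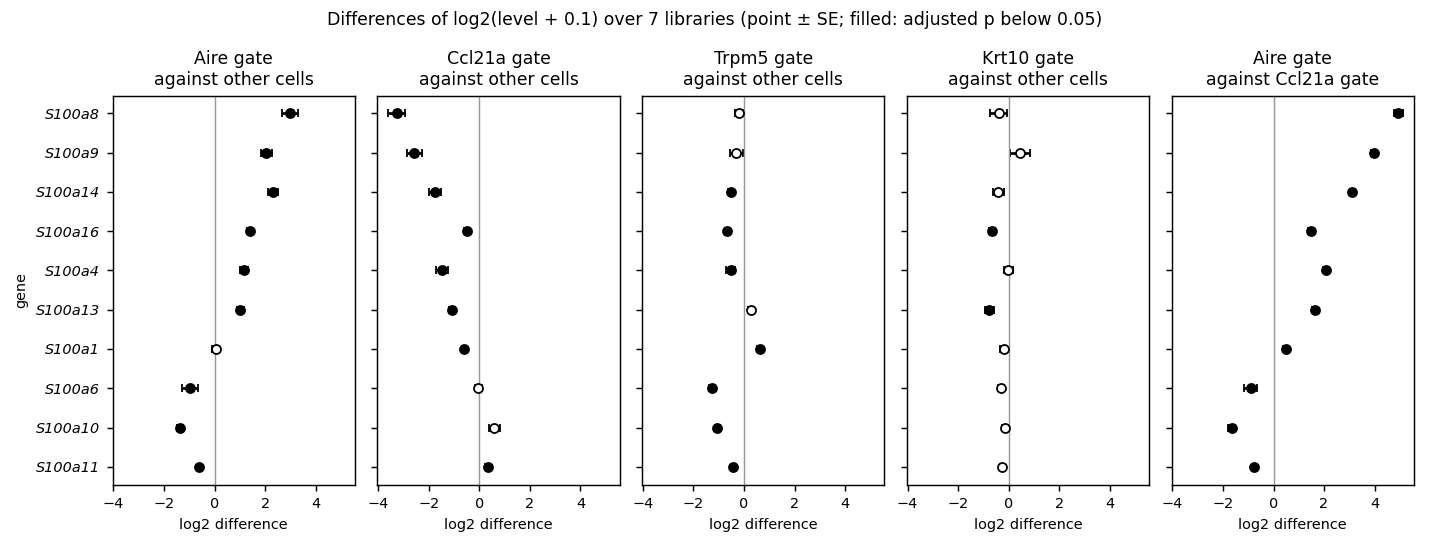
Log2 difference of level + 0.1 for each S100 gene in 5 gate comparisons over 7 libraries; points are limma estimates, bars their SE, and filled points have an adjusted p below 0.05. *S100a8* lies at 3.00 for the *Aire* gate, -3.27 for the *Ccl21a* gate, -0.18 for the *Trpm5* gate, -0.40 for the *Krt10* gate and 4.94 for the *Aire* gate against the *Ccl21a* gate.

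In the *Ccl21a* gate 7 genes were lower than in the other cells and 1, *S100a11*, was higher. Over all 11041 genes tested, 23.3% were called lower and 15.2% higher, and the median log2 difference was -0.85 for the 10 genes and -0.02 for all genes. *S100a8* differed by -3.27 ± 0.32 (limma adjusted p = 1.3e-04), *S100a9* by -2.57 ± 0.30, *S100a14* by -1.75 ± 0.24, *S100a4* by -1.46 ± 0.24, *S100a13* by -1.09 ± 0.11 and *S100a1* by -0.61 ± 0.09, each lower in 7 of 7 libraries. *S100a16* was lower by less, at -0.50 ± 0.11 (6 of 7, limma adjusted p = 0.00791), and against cells of no gate the difference was -0.06 (0.572). *S100a11* was higher by 0.35 ± 0.12 (5 of 7 libraries, limma adjusted p = 0.0426), a call lost without any of 5 of the 7 libraries, with adjusted p from 0.0609 to 0.113. *S100a10* had 0.59 ± 0.23 (adjusted p = 0.065) and *S100a6* -0.05 ± 0.14 (0.814).

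Set directly against each other, the *Aire* and *Ccl21a* gates differed in all 10 genes, 7 higher and 3 lower in the *Aire* gate. Over the 10979 genes tested, 23.9% were called higher and 31.4% lower. *S100a8* was 30.7-fold higher (log2 difference 4.94 ± 0.17, 7 of 7 libraries, limma adjusted p = 8.85e-09), *S100a9* 15.6-fold (3.97 ± 0.13) and *S100a14* 8.51-fold (3.09 ± 0.08). *S100a4* followed at 2.07 ± 0.13, *S100a13* at 1.63 ± 0.09, *S100a16* at 1.46 ± 0.08 and *S100a1* at 0.49 ± 0.13, while *S100a10* was lower at -1.64 ± 0.14, *S100a6* at -0.91 ± 0.25 and *S100a11* at -0.75 ± 0.08. The *S100a1* call was lost on summed UMIs (0.32, limma adjusted p = 0.121), on the mean natural log (0.0946) and without cells carrying other cell types' markers (0.07, 0.904), and the *S100a6* call was lost with an *Aire* cutoff of 0 (-0.42, 0.0767). In the 2 libraries with enough cells free of other cell types' markers, *S100a14* differed by 3.12, *S100a8* by 2.46, *S100a4* by 2.31 and *S100a9* by 1.95, all still called, so *S100a8* and *S100a9* were not the widest there.

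The *Trpm5* gate, which held tuft cell genes such as *Avil* at 2.21 to 7.20 and *Dclk1* at 2.40 to 7.08, was the only gate of the 4 in which *S100a1* was higher than in the other cells. Here 1 gene was higher and 6 were lower, where 15.7% of the 11283 genes tested were called higher and 13% lower, and the median log2 difference was -0.49 for the 10 genes and -0.01 for all genes. *S100a1* stood at 6.45 in the trace library, 5.00 and 3.69 in the isotype libraries and 5.62, 6.42, 4.09 and 6.16 in the anti-RANKL libraries, and differed by 0.62 ± 0.10 (7 of 7 higher, limma adjusted p = 5.25e-04). Against cells of no gate its difference was 0.28 (adjusted p = 0.0613).

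*S100a6* had the largest difference of the 10 genes in the *Trpm5* gate, with a median of 3.16 (2.69 to 4.84) and a log2 difference of -1.28 ± 0.10 (7 of 7 lower, limma adjusted p = 6.77e-07). *S100a10* differed by -1.06 ± 0.09 (2.35e-06) and *S100a11* by -0.44 ± 0.08 (7.39e-04), each lower in every library. *S100a16* at -0.66 ± 0.11, *S100a14* at -0.53 ± 0.11 and *S100a4* at -0.53 ± 0.19 were also called, but none of the 3 against cells of no gate (-0.33, -0.23 and -0.74, adjusted p 0.0671, 0.21 and 0.062). The *S100a4* call was lost in 12 of 19 other settings, among them both other pseudocounts, thinning, summed UMIs and leaving out the trace library, either isotype library or anti-RANKL week 10 (limma adjusted p 0.0502 to 0.262 over the 12). *S100a8* ranged from 0 in anti-RANKL week 4, with no UMI in 58 cells, to 6.73 and did not pass (-0.18 ± 0.18, adjusted p = 0.48), nor did *S100a9* (-0.31 ± 0.25, 0.399) or *S100a13* (0.27 ± 0.13, 0.137).

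In the *Krt10* gate no S100 gene was called higher and 2 were lower, where 2.59% of the 11276 genes tested were called higher and 3.4% lower. *S100a13* had a median of 1.88 (1.04 to 2.47) and differed by -0.76 ± 0.16 (7 of 7 lower, limma adjusted p = 0.011), and *S100a16* had a median of 4.87 (3.15 to 5.19) and differed by -0.66 ± 0.13 (7 of 7 lower, 0.00647). *S100a9*, known from activated keratinocytes, stood at 0 in anti-RANKL week 6, 0.04 in week 4 and 6.80 in week 10, and its libraries overlapped those of the other cells (0.45 ± 0.40, adjusted p = 0.597). With a stricter cutoff of 2, which 87 cells passed and for which 4 libraries had enough cells, *S100a9* was higher by 1.41 (adjusted p = 0.0119) and *S100a10* differed by -1.88 (1.09e-04), while *S100a16* lost its call (-0.47, 0.0709). Without the anti-RANKL week 10 library the *S100a13* difference was -0.68 with an adjusted p of 0.0511.

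Among the other listed S100 genes, *S100a3*, known from hair, and *S100g*, the vitamin D-dependent calbindin of the gut, were measured on both sides of the gates. *S100a3* overlaps *S100a2* and *Gm42674* on the same strand, so the counts of *S100a3* and *S100a2* are uncertain to that degree. In the *Aire* gate *S100a3* had a mean level of 1.96 against 0.413 (log2 difference 2.04 ± 0.11, limma adjusted p = 1.05e-05) and *S100g* 4.75 against 1.82 (1.69 ± 0.36, 0.00335). In the *Ccl21a* gate *S100g* differed by -3.21 ± 0.25 and *S100a3* by -1.37 ± 0.31, both lower. *S100a2*, *S100a5*, *S100a7a* and *S100z* were called higher in the *Aire* gate as well (0.86, 0.46, 0.69 and 1.62), but stood below 0.05 in the other cells and reached the filter only through the gate.

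The partners of S100 proteins, 18 genes of which 14 were tested, were lower or not called in the *Aire* gate, where 9 were called lower and 0 higher, against 29.8% lower and 17.1% higher over all genes. *Anxa2*, the annexin that binds the *S100a10* product, differed by -2.12 ± 0.16 and *Anxa1*, which binds that of *S100a11*, by -2.30 ± 0.26. *Ahnak*, a scaffold of the annexin A2 complex, differed by -1.0 ± 0.15. In the *Ccl21a* gate *Anxa2* was higher by 1.43 ± 0.25 and *Myh9*, the myosin bound by the *S100a4* product, by 0.55 ± 0.08, among 4 called higher and 3 lower (15.2% and 23.3% over all genes). In the *Trpm5* gate 5 were higher and 3 lower (15.7% and 13% over all genes), with *Calm2*, a calmodulin gene, at 1.24 ± 0.09 and *Ahnak* at -1.19 ± 0.13. For *S100a10* and *Anxa2* the direction was the same in the *Aire* gate, whereas for *S100a4* and *Myh9* it was opposite, as *Myh9* differed by -0.49 ± 0.11 there.

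Genes of the epidermal differentiation complex, which lies beside the S100 genes on chromosome 3, had another pattern in the *Krt10* gate. Of 15 listed, 12 were tested in the *Krt10* gate and 6 were higher. Among them were *Flg*, the filaggrin gene (2.90 ± 0.52, limma adjusted p = 0.0042), *Rptn* (1.64 ± 0.33) and *Sprr1a*, a cornified envelope gene (1.58 ± 0.37). Only 10, 9 and 7 passed the filter for the *Aire*, *Ccl21a* and *Trpm5* gates. Levels in the *Krt10* gate itself can thus have brought some genes past the filter there. In the *Aire* gate 3 of 10 were higher and 2 lower (17.1% and 29.8% over all genes), with *Sprr1a* at 1.44 ± 0.41. In the *Ccl21a* gate 1 of 9 was higher and 8 were lower (15.2% and 23.3% over all genes). In the *Trpm5* gate 0 of 7 were higher and 5 lower (15.7% and 13%), and most S100 genes were lower in both gates as well. Between the *Aire* and *Ccl21a* gates 4 of 7 were higher in the *Aire* gate and 0 lower (23.9% and 31.4%). Over all genes tested in the *Krt10* gate, 2.59% were called higher.

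Along the anti-RANKL time course, *S100a8*, *S100a9*, *S100a4* and *S100a14* were below the isotype libraries at weeks 2, 4 and 6. Over all *Ptprc*-negative cells *S100a8* stood at 9.64 and 6.86 in the isotype libraries and at 0.509, 0.0823, 1.66 and 7.12 after anti-RANKL in order of week, with 957 and 141 UMIs at weeks 2 and 4. *S100a9* stood at 3.51 and 1.83 and then at 0.233, 0.0436, 0.282 and 2.05. *S100a14* stood at 12.3 and 12.9 and then at 4.12, 2.3, 4.15 and 10.8. Each was lowest at week 4 and within or near the isotype values at week 10. *S100a4* stood at 1.09 and 0.853 and then at 0.306, 0.219, 0.267 and 0.946.

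With 1 library per week there is no test, and a gene was counted where its level plus 0.1 was at least 2-fold above the higher isotype library or as far below the lower isotype library. By that rule 4 of the 10 genes, *S100a8*, *S100a9*, *S100a4* and *S100a14*, were lower and 0 higher at each of weeks 2, 4 and 6, and 0 were lower or higher at week 10. Without cells carrying a UMI of other cell types' markers 1, 3 and 2 genes were lower at weeks 2, 4 and 6. Counts over all genes also moved with the setting, from 29 to 936 lower at week 2, 80 to 1468 at week 4 and 37 to 1350 at week 6. The S100 counts were not set against all genes at that same setting. Markers of the macrophage and dendritic list moved along the same course. Of the cells below 10 UMIs of *S100a8* per 10000, 65.6% and 54.2% had a UMI of them in the isotype libraries. After anti-RANKL the shares were 34.4%, 10.2%, 22.7% and 52.2% in order of week. These shares were not thinned. Median depth was 17135 and 8292 UMIs per cell in the isotype libraries and 11164, 4795, 4281 and 7296.5 after anti-RANKL. The part of depth in these shares, and of the markers in the S100 levels, was not tested further. Over the 11252 genes measured, 3.65% were past the fold downwards and 1.18% upwards at week 2, 6.57% and 2.6% at week 4, 4.58% and 2.49% at week 6, and 0.0178% and 0.0711% at week 10. Between libraries of the same age, *S100a8* was 16-fold and *S100a9* 10.8-fold lower at week 2, and *S100a14* and *S100a4* were each 2.93-fold lower. At week 10 the same genes differed by log2 differences of 0.05, 0.16, -0.25 and 0.13 from the isotype library.

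The remaining genes moved less. At week 2, *S100a13* was 1.85-fold and *S100a16* 1.56-fold lower than in the isotype library of the same age, and *S100a10* was 1.55-fold and *S100a11* 1.32-fold higher. *S100a10* stood at 3.12 and 3.19 in the isotype libraries and at 4.87, 6.28, 5.97 and 3.20 after anti-RANKL in order of week, so weeks 2, 4 and 6 lay above both isotype libraries and week 10 next to them. *S100a11* stood at 15.6 and 12.4 and then at 20.6, 23.3, 21.3 and 13.4, in the same order of groups. *S100a1* (3.12 to 4.28) and *S100a6* (7.04 to 8.87) kept narrow ranges over all 7 libraries.

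**Figure D4:**
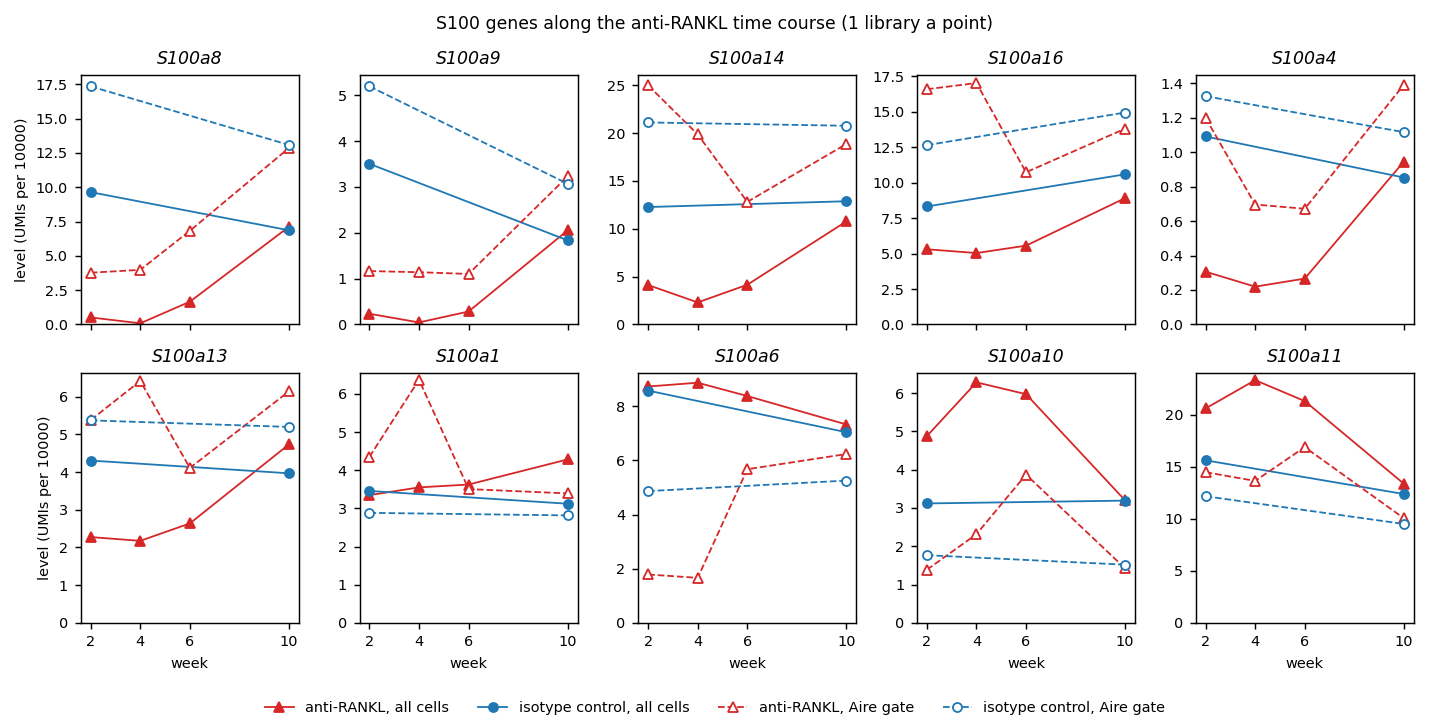
Level (UMIs per 10000) of each S100 gene against week for anti-RANKL (triangles) and isotype control (circles), over all *Ptprc*-negative cells (filled, solid line) and within the *Aire* gate (open, dashed line); each point is 1 library. *S100a14* fell to 2.3 over all cells at week 4 and stood at 19.9 within the *Aire* gate of that library.

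The share of cells in the gates moved along the same time course. The *Aire* gate held 40.4% and 44.0% of cells in the isotype libraries and 5.24%, 1.52%, 15.2% and 38.7% after anti-RANKL in order of week, while the *Ccl21a* gate held 14.2% and 16.7% and then 57.8%, 65.1%, 46.5% and 21.0%. The level over all cells of a library therefore mixes the share of *Aire* gate cells with the level within them. Within the gate, *S100a14* at weeks 2 and 4 (25.0 and 19.9) lay on either side of the isotype values (21.1 and 20.8), and at week 6, in 109 cells, it lay below both (12.8). *S100a16* at weeks 2 and 4 (16.6 and 17) lay above its isotype values (12.7 and 15.0), and at week 6 (10.7) it lay below both. *S100a8* within the gate at weeks 2 and 4 (3.77 in 62 cells and 3.98 in 22 cells, of which 2 had a UMI) lay below both isotype values (17.4 and 13.1), with thinned detection of 8.06% (exact binomial 95% interval 2.67% to 17.8%) and 9.09% (1.12% to 29.2%) against 30.9% and 28.2%. With 1 library per week, this difference within the gate was not tested.

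The pooled comparison of 4 anti-RANKL with 2 isotype libraries, weeks and ages together, called 0 genes in either direction by limma over all cells (0% of 11252 genes), and 0 of the 10 S100 genes. At an unadjusted p below 0.05 it held 1816 genes, among them *S100a14*, *S100a9*, *S100a4* and *S100a16*. The differences were -2.92 ± 1.32 for *S100a8* (limma adjusted p = 0.313), -2.57 ± 0.98 for *S100a9* (0.309), -1.45 ± 0.53 for *S100a14* (0.309) and -1.17 ± 0.47 for *S100a4* (0.309). The anti-RANKL week 10 library decided this result. Without it, 6 S100 genes were called lower and 2 higher, with *S100a8* at -3.83 (adjusted p = 0.0246), *S100a9* at -3.33 (0.00776), *S100a14* at -1.85 (0.00811), *S100a4* at -1.56 (0.00547) and *S100a10* at 0.83 (0.0139), and over all genes 1093 were then called higher and 1409 lower.

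Within the *Ccl21a* gate, where 0% of 10226 genes were called in either direction and 803 had an unadjusted p below 0.05, 0 of the S100 genes were called. *S100a9* differed by -1.40 ± 0.51 (limma adjusted p = 0.605) and *S100a14* by -0.32 ± 0.13 (0.63), and these were the 2 with an unadjusted p below 0.05. *S100a10* (-0.14 ± 0.16, adjusted p = 0.847) and *S100a11* (0.13 ± 0.13, 0.825), whose levels over all cells at weeks 2, 4 and 6 lay above both isotype libraries, did not pass in this gate. Without the anti-RANKL week 10 library *S100a9* was called, at -1.85 (adjusted p = 0.0273).

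In the *Aire* trace library, cells were split by a UMI of *Aire* and a UMI of the ZsGreen reporter, which the file lists as GFP. *S100a8* stood at 10.9 in the 221 cells with both, 0.929 in the 66 cells with *Aire* alone, 0.414 in the 413 cells with ZsGreen alone and 0.121 in the 618 cells with neither. *S100a9* stood at 2.56, 0.776, 0.245 and 0.0194 in the same classes. Both genes were thus highest in cells with *Aire* and ZsGreen. Among cells with ZsGreen alone, *S100a8* stood at 0.254 and *S100a9* at 0.015 in the *Ccl21a* gate, and at 0.781 and 0.767 outside it. Outside that gate, cells with neither had *S100a8* at 0.116 and no UMI of *S100a9* in 106 cells (exact binomial 95% upper limit 3.42%, for cells with a UMI and not for cells expressing the gene). The classes come from 1 library, so there is no test, and their median depths were 15173, 10644.5, 9268 and 7870 UMIs.

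Thinned to 2000 UMIs, *S100a8* was detected in 22.6% of cells with both, 7.58% with *Aire* alone, 3.15% with ZsGreen alone and 2.59% with neither. *S100a14* stood at 11.7, 5.76, 2.66 and 1.87 UMIs per 10000 in the 4 classes, and *S100a16* at 9.65, 6.52, 4.57 and 4.50. Over whole classes, *S100a10* and *S100a11* had the reverse order, with 2.58, 4.37, 5.22 and 6.45 for *S100a10* and 12.8, 17.6, 19.6 and 21.7 for *S100a11*. Of the cells with *Aire* alone, 37 were in the *Ccl21a* gate, with *S100a14* at 1.60 and *S100a10* at 6.43, and 29 were not, with 11.1 and 1.76, so the class means lay between 2 unlike sets of cells. Outside that gate, the 182 cells with both had *S100a14* at 13.2, *S100a10* at 1.94 and *S100a11* at 12.1, and the cells with *Aire* alone had *S100a11* at 11.1, so the order of these classes turned for *S100a10* and *S100a11*. Of the cells with ZsGreen alone, 287 were in the *Ccl21a* gate and 126 were not. *S100a14* was 2.26 in the former and 3.57 in the latter, and *S100a10* was 6.02 and 3.40. *S100a6* was lowest in cells with *Aire* alone (6.10), against 10.3 with both, 8.31 with ZsGreen alone and 8.06 with neither.

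**Figure D5:**
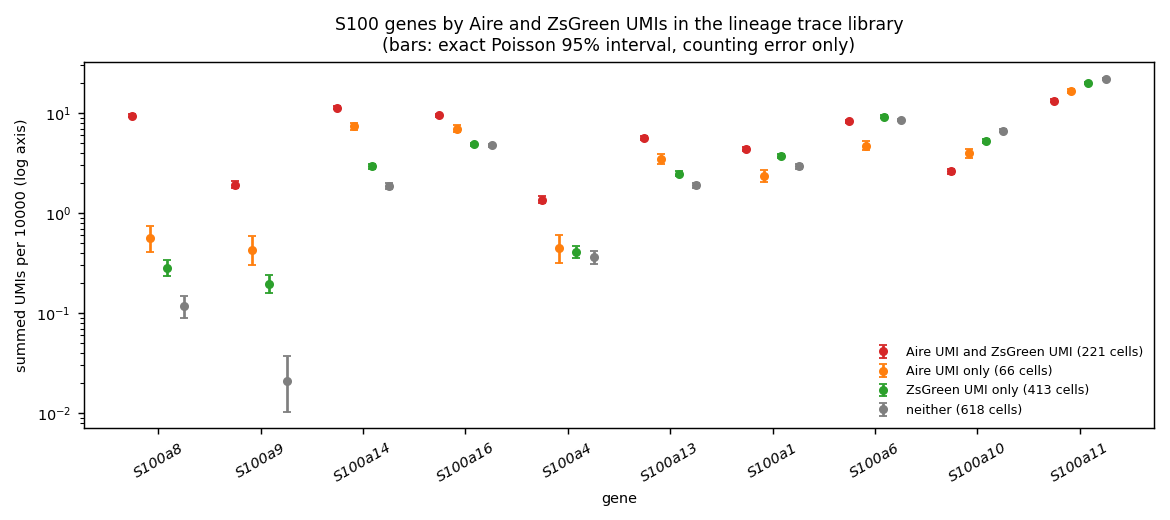
Summed UMIs per 10000 summed UMIs (log axis) of each S100 gene in the 4 classes of the *Aire* trace library; bars are exact Poisson 95% intervals, which cover counting error only. *S100a8* lies at 9.43 in cells with *Aire* and ZsGreen and at 0.117 in cells with neither, and *S100a11* at 13.3 and 21.9.

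Over 28 profiles of library and gate, the genes whose log2 level was most like that of each S100 gene were found among 2798 candidates, as a description. The points share libraries and depth, and the gate differences above enter them. For *S100a8* these were *Ctsh* (Pearson r 0.946), *Csn2* (0.945) and *Ncf1* (0.939), and for *S100a9* they were *S100a8* itself (0.906), *Fabp4* (0.889) and *Lad1* (0.882). *S100a14* was most like *Fam89a* (0.957), *Mrpl38* (0.954) and *Tnfrsf11b* (0.95), and *S100a16* most like *Apobec3* (0.952). *S100a10* was most like *Laptm4a* (0.943), *Ifitm3* (0.940) and *Bcam* (0.933), and *S100a11* most like *Tpm2* (0.898) and *Krt7* (0.861). *S100a6* had no gene above 0.715. Between members, *S100a8* and *S100a9* had the highest r (0.906), followed by *S100a4* and *S100a14* (0.894), and *S100a9* and *S100a11* the lowest (-0.781).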

How the data were processed

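Droplet single-cell libraries were made from pooled mouse thymi, and per the labels the reads were aligned with Cell Ranger 2.2.0 to mm10 and processed in Seurat 2.3.4. The values the authors deposited are on a natural log scale, ln(1 + x), where x is a gene's UMI count scaled to 10000 per cell, although the methods name another scale factor. Whole UMIs were recovered in every cell within a tolerance of 0.01. Genes that a library's table does not list were taken as 0. The 10760 cell columns of the combined tables were not used. Levels, gates, detection and thinning were computed in Python 3.11.15 (pandas 2.3.3, numpy 2.4.6, scipy 1.17.1). Tests were run with limma 3.58.1 (trend) in R 4.3.3 on log2(level + 0.1), over genes with a mean level of at least 0.05 and sides of at least 10 cells, and were tested on simulated data. For detection each cell was thinned to 2000 UMIs, and 177 cells below that depth were left out. No doublet caller was run, the study's methods give lower and upper limits on genes per cell, and 41 cells passed both the *Aire* and the *Ccl21a* gate. The strand setting of the counting is not given in the sources used here. The S100 genes, the lists and the rule for named genes (all members, the lists, and the 3 genes most like each member) were chosen with earlier results of these data known. The alternatives tried were other pseudocounts, filters, scales, gate cutoffs and comparison cells, thinning, leaving out deep or marker-carrying cells, leaving out each library, and pairing libraries by age. Intervals cover counting error only.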

Additional observations from a re-analysis of the deposited data

Results flagged for a closer look

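Of 100 groups of libraries tested for a value apart from the rest, 10 held one. Chance flags about 1 in 20 independent groups, and these groups share libraries and cells. Most were the anti-RANKL week 10 library, which stood above weeks 2, 4 and 6. There *S100a9* had a level of 2.05 over all cells (0.0436 to 0.282 at the other weeks), 3.23 in the *Aire* gate (1.1 to 1.16) and 0.29 in the *Ccl21a* gate (0.00589 to 0.029). In the same library *S100a4* had 0.946 over all cells (0.219 to 0.306) and 0.808 in the *Krt10* gate (0.245 to 0.269), and *S100a16* had 8.92 over all cells (5.04 to 5.56).

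*S100a14* in the *Ccl21a* gate stood at 2.42 in anti-RANKL week 2, against 2.08 to 2.11 at the other weeks. The log2 difference of *S100a8* between the *Aire* gate and the other cells was 5.06 in anti-RANKL week 4, where the gate held 22 cells and 2 of them had a UMI, against 1.85 to 3.23 in the other libraries. In the *Krt10* gate *S100a8* differed by 2.52 in anti-RANKL week 2, against -1.72 to -0.18, and *S100a1* by -0.98 in isotype week 2, against -0.28 to 0.19.

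*S100a13* in the *Trpm5* gate was above the other cells in every anti-RANKL library (mean log2 difference 0.49, from 0.01 to 0.96) and below them in both isotype libraries (-0.35 and -0.10), a difference between the groups that was not tested. Among cells with a *Ptprc* UMI, which entered no comparison between gates or treatments, *S100a8* had a level of 80.4 in the 33 cells of anti-RANKL week 10, against 17.4 in the higher isotype library.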

How the results depend on the processing

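Of the settings tried on single S100 genes, 1226 values kept their side of the threshold, 48 lost the call and 28 gained one. A further 3 reversed, which was counted only where the reported or the other value was called. Values not called could change sign among the 1226, as *S100a14* did in the *Krt10* gate (-0.56 to 0.46). Without cells carrying markers of other cell types, *S100a9* (-0.80) and *S100a1* (-1.21) reversed in the *Aire* gate and 3 genes were called higher there. On the mean natural log, *S100a6* reversed in the *Ccl21a* gate (0.29). The genes called higher in the *Ccl21a* gate numbered 0 with a pseudocount of 1, with no filter, without the deepest 5% of cells, with no library block or against cells of no gate, 2 on summed UMIs or without other cell types' markers, and 3 on the mean natural log, and 0 to 2 with each library left out. In the *Trpm5* gate 2 were higher on the mean natural log or without other cell types' markers and 0 against cells of no gate, and 2 were lower with no library block and 3 against cells of no gate, with 1 to 2 higher when libraries were left out. In the *Krt10* gate 1 was lower on the mean natural log, 0 with no library block, and 1 higher and 5 lower with a cutoff of 2, with 1 to 2 lower when libraries were left out. Anti-RANKL against isotype gave 0 to 2 higher and 0 to 6 lower over all cells and 0 to 1 lower in the *Ccl21a* gate, the upper ends without anti-RANKL week 10. With a fold of 1.5, 1 gene was higher at weeks 2, 4 and 6 and 6, 6 and 4 were lower, and on summed UMIs 1 at week 4, while without other cell types' markers 1 was lower at week 2 and 2 at week 6. Member and gate pairs with a UMI in over 50% of cells numbered 30, and 13 after thinning. *S100a8* in the trace classes was 9.43 with *Aire* and ZsGreen and 0.283 with ZsGreen alone on summed UMIs. The causes were not tested.

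Over all genes, calls ran from 488 to 2469 higher and 931 to 3735 lower in the *Aire* gate (1925 and 3362 as reported), 631 to 2051 and 590 to 4476 in the *Ccl21a* gate (1682 and 2571), 710 to 2141 and 521 to 1884 in the *Trpm5* gate (1768 and 1464), 47 to 806 and 59 to 1095 in the *Krt10* gate (292 and 383), and 745 to 3723 and 869 to 3609 between the *Aire* and *Ccl21a* gates (2619 and 3449). Anti-RANKL against isotype gave 0 to 1093 higher and 0 to 1409 lower over all cells, and 0 to 8 and 0 to 39 in the *Ccl21a* gate. Genes past the fold ran from 21 to 645 higher and 29 to 936 lower at week 2 (133 and 411 as reported), 57 to 951 and 80 to 1468 at week 4 (292 and 739), 68 to 793 and 37 to 1350 at week 6 (280 and 515), and 0 to 51 and 1 to 18 at week 10 (8 and 2). No paired analysis was possible by replicate number because the numbers only name libraries. With the libraries of weeks 2 and 10 paired by age as a block, an alternative chosen after seeing the data, limma called 0 genes over all cells and 0 in the *Ccl21a* gate (367 and 421 at an unadjusted p below 0.05), and *S100a8* over all cells differed by -1.97 (adjusted p = 0.82). In the *Krt10* gate, leaving out cells with other cell types' markers and sides of at least 50 cells could not be fitted, since too few libraries remained.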
